A study of Rattus norvegicus with 9 samples.

Results

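The regions described here are the distal intergenic regions of an Egr1 ChIP-seq study, that is, the differential Egr1 regions that lay outside their annotated gene, more than 10000 bp from its start, and at most 100000 bp from the gene. They were taken from 3 tables, one for each pair of groups, in which the authors listed the regions called different, and a region had to lie on chromosomes 1 to 20 and to be annotated as upstream or downstream of the gene. The rule used position only. It gave 717 regions in proestrus versus males (PvM), of 3225 listed, 627 in proestrus versus diestrus (PvD), of 1774 listed, and 249 in diestrus versus males (DvM), of 691 listed, which makes 1593 of 5690 rows. They made up 34.4%, 37.9%, and 39.3% of the listed regions of chromosomes 1 to 20 in the 3 comparisons. For each pair of groups the paper reports fewer differential hits than the rows listed.

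The study compared chromatin of the medial prefrontal cortex (mPFC) of Sprague-Dawley rats, 8 weeks old, between 3 groups, namely males (n = 3), proestrus females (n = 2), and diestrus females (n = 4), with the stage read from vaginal smears. The paper states that diestrus females were killed early on the first day of that stage and proestrus females in the early afternoon. Stage and time of collection therefore cannot be told apart. Libraries were sequenced in pools, and the last pool held diestrus females only. Chromatin was immunoprecipitated with the Egr1 antibody sc-110-X, and no group carried a transgene or received a drug. Tissue punches hold all cell types of the mPFC, so fewer cells with Egr1 at a site and less Egr1 per cell cannot be told apart. The authors removed outlier libraries before comparing the groups, the labelled tissue could not be checked by marker genes in a list of differential regions, and no depth per library was used here.

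Egr1 is a zinc finger transcription factor and the product of an immediate early gene, made within minutes to hours of neuronal activity, and it binds GC-rich sites in promoters and in distal regulatory elements. Distal elements such as enhancers can act on a promoter far along the chromosome, and the nearest gene need not be their target. Proestrus is the stage of the rat cycle with high ovarian estradiol and then progesterone, and diestrus is a stage in which estradiol is low.

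The word intergenic held only with limits. The annotation took the gene with the nearest start, so a region could lie within another gene. Of the members, 22 (3.07%) in PvM, 26 (4.15%) in PvD, and 13 (5.22%) in DvM lay in the span of another gene of the tables, which is a lower count because only the 3546 genes of the tables could be checked. The distance of more than 10000 bp was counted from the gene start, and 37, 34, and 12 of the downstream members lay within 10 kb of the gene. Many nearest genes were short, and 235 (32.8%), 169 (27.0%), and 57 (22.9%) of the members had a nearest gene spanning under 1 kb. Over all listed regions of chromosomes 1 to 20 the shares were 29.9%, 23.9%, and 21.9%, so short genes were not particular to the members. Upstream members had longer nearest genes than downstream members, with median spans of 6349.5 bp versus 3589 bp in PvM, 17823 bp versus 6675 bp in PvD, and 15925 bp versus 7234 bp in DvM.

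The regions were short and scattered. Their median length was 500 bp in each comparison, with a maximum of 2750 bp, 1150 bp, and 1050 bp, and the median shortest distance to the gene was 41212 bp, 37134 bp, and 39283 bp. The 717 regions of PvM were nearest to 664 genes and formed 702 loci when regions within 10 kb were joined, the 627 of PvD were nearest to 601 genes in 623 loci, and the 249 of DvM were nearest to 241 genes in 246 loci. Most nearest genes thus had 1 region, and 43, 25, and 6 genes had several. The share of listed regions that were members varied between chromosomes, from 19.3% (16 of 83) on chromosome 13 to 46.7% (21 of 45) on chromosome 19 in PvM, from 24.6% (17 of 69) on chromosome 15 to 52.0% (39 of 75) on chromosome 9 in PvD, and from 22.7% (5 of 22) on chromosome 17 to 66.7% (8 of 12) on chromosome 20 in DvM. No sequence of a region was read, because the genome of the build used by the authors, Rnor_5.0, was not used here.

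Coordinates are those of the tables, on Rnor_5.0. Values are the authors' normalized reads in a region, one per library, and the ratios are of the authors' group means. In each library nearly all values were whole multiples of the value of 1 read (9089 of 9090 within 0.1 of a whole number), which was between 0.634 and 1.65 normalized reads in PvM, between 0.695 and 1.32 in proestrus libraries and between 0.853 and 1.26 in diestrus libraries of the second comparison, and between 0.558 and 1.37 in DvM. Depth behind a single region was low. Over all libraries the median member held 17 reads in PvM (10 to 1488), 17 in PvD (9 to 317), and 27 in DvM (17 to 137), and 503 (70.2%), 448 (71.5%), and 3 (1.20%) held fewer than 20. The 3 tables were normalized separately, so levels are compared within a table only.

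The listed distal Egr1 regions were mostly higher in proestrus than in males. Of the 717 members, 638 (89.0%, Wilson 95% interval 86.5 to 91.1) had the higher group mean in proestrus, beside 90.3% of all listed regions of chromosomes 1 to 20, and 79 were lower, beside a background of 9.68% lower. The share of members was near that of the whole list. The interval covers counting error only, and regions of a library are not replicates. The values of the libraries did not overlap between the groups in 717 of 717 members, beside 100% of all listed regions, a property of the list and not of the members, since only called regions were deposited. The median log2 ratio was 2.78 (quartiles 2.36 and 3.33). Members higher in proestrus had median group means of 7.35 normalized reads in proestrus and 1.01 in males, and members higher in males had medians of 0 in proestrus and 7.36 in males. A group mean was listed at 0 in proestrus for 48 members and in males for 21. The 2 directions were listed at unlike depth. The 79 lower members all held at least 22 reads, whereas 503 of the 638 higher ones (78.8%) held fewer than 20.

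The list of PvD was nearly all higher in proestrus, and so were its distal regions. Of the 627 members, 617 (98.4%, Wilson 95% interval 97.1 to 99.1) were higher in proestrus, beside 98.2% of all listed regions, and 10 were lower, beside 1.75%. Both shares are those of the list of called regions and not particular to distal ones. Libraries did not overlap in 627 of 627, beside 99.7%. The median log2 ratio was 3.05 (quartiles 2.76 and 3.80), and members higher in proestrus had median group means of 6.46 in proestrus and 0.79 in diestrus. Diestrus was listed at 0 in 44 members and proestrus in 8 of the 10 lower ones. Those 10 all held at least 22 reads, whereas the members higher in proestrus held 9 reads or more.

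The list of diestrus versus males was divided in direction, and so were its distal regions. Of the 249 members, 91 (36.5%, Wilson 95% interval 30.8 to 42.7) were higher in diestrus, beside 37.9% of all listed regions, and 158 were lower, beside 62.1%. Both shares were near those of the list of called regions and not particular to distal ones. Libraries did not overlap in 248 of 249, beside 99.8%. The members higher in diestrus had a median log2 ratio of 2.71, with median group means of 6.30 in diestrus and 0.92 in males, and those higher in males had a median of -3.00, with 0.83 in diestrus and 6.51 in males. Among the 12 members whose larger group mean was at least 10 normalized reads, 7 (58.3%, Wilson 95% interval 32.0 to 80.7) were higher in diestrus. The share of all listed regions at this cut was not computed, so the count is not read as particular to distal regions. Of those 7, 4 lay upstream of 1 gene on chromosome 2 and 2 upstream of 1 gene on chromosome 1, both described further on, and the other lay on chromosome 20.

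**Figure D1:**
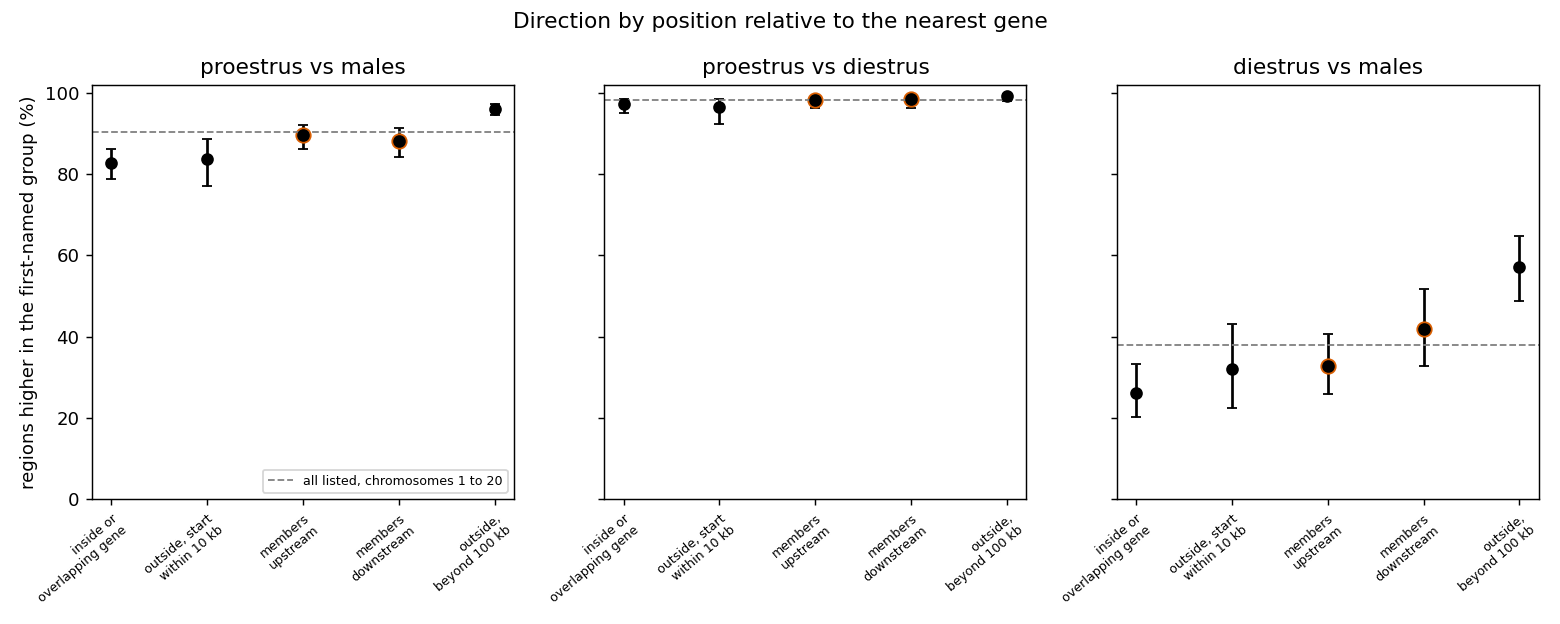
Share of listed regions higher in the first-named group (%) for regions of chromosomes 1 to 20 inside or overlapping the gene, outside it with the gene start within 10 kb, distal upstream and downstream (orange rims), and beyond 100 kb. Bars are Wilson 95% intervals for counting error, and the dashed line is the share over all listed regions. The distal regions lie close to the line in each comparison, at 89.0%, 98.4%, and 36.5% over both sides.

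Seen against the other positions, the members lay between regions of genes and more remote regions. In PvM, 82.9% of 385 regions inside or overlapping the gene, 83.7% of 153 regions outside it with the start within 10 kb, and 96.2% of 832 regions beyond 100 kb were higher in proestrus. In PvD the corresponding shares were 97.3% of 372, 96.7% of 150, and 99.2% of 505. In DvM, 26.2% of 168, 32.0% of 75, and 57.0% of 142 were higher in diestrus. Within the members the shares moved in the same order over distance in 2 comparisons, from 87.7% at 0 to 25 kb to 88.6% at 25 to 50 kb and 90.2% at 50 to 100 kb in PvM, and from 31.5% to 35.5% and 41.0% in DvM, whereas in PvD they were 97.1%, 99.5%, and 98.6%. These shares are given as a description, with no test over regions.

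**Figure D2:**
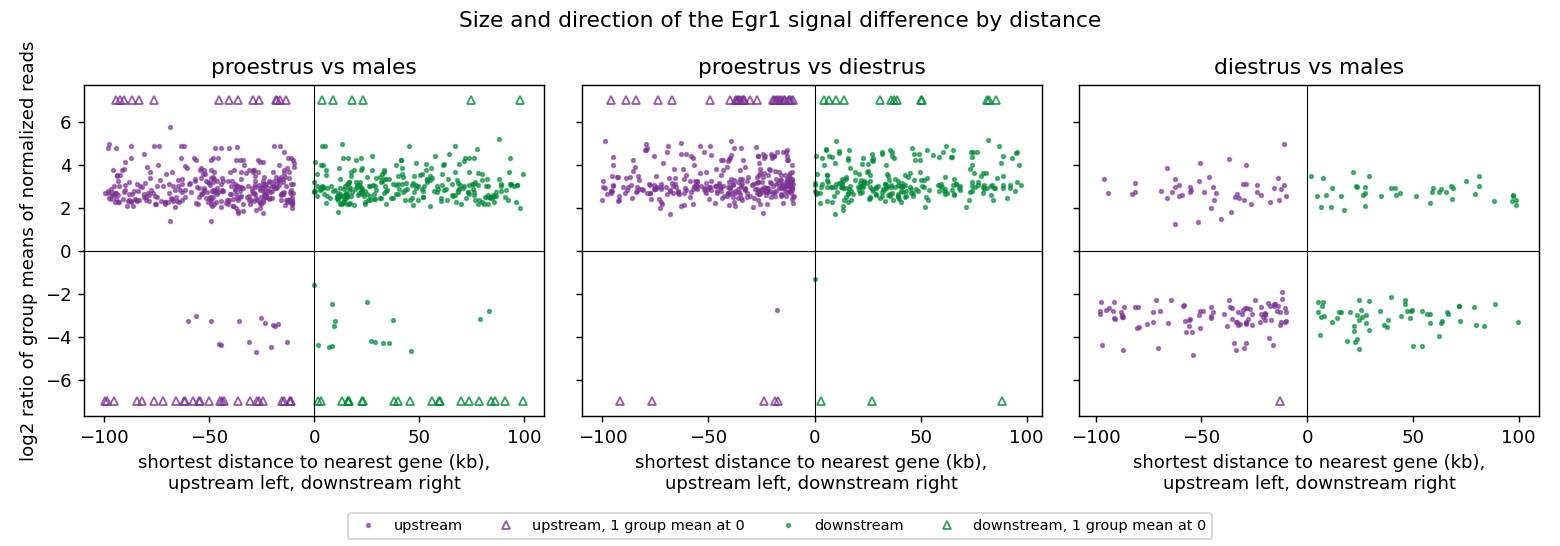
Log2 ratio of the group means of normalized reads for each member against its shortest distance to the nearest gene (kb), upstream on the left and downstream on the right. Triangles at the upper and lower edge mark members in which 1 group mean was listed at 0 and no ratio exists. Points lie mostly above 0 in both comparisons with proestrus, and on both sides of 0 in DvM.

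The share higher was then compared between upstream and downstream members. In PvM, 362 of 404 upstream members (89.6%) and 276 of 313 downstream members (88.2%) were higher in proestrus, a difference of 1.43 percentage points (Newcombe 95% interval -3.16 to 6.24). In PvD the shares were 353 of 359 (98.3%) and 264 of 268 (98.5%), a difference of -0.179 points (-2.31 to 2.28). In DvM, 49 of 149 upstream members (32.9%) and 42 of 100 downstream members (42.0%) were higher in diestrus, a difference of -9.11 points (-21.2 to 3.01). Each interval held 0, which does not show that the sides were alike, and that of DvM was the widest. By distance in DvM, the upstream and downstream shares were 27.5% and 36.4% at 0 to 25 kb, 35.4% and 35.7% at 25 to 50 kb, and 34.4% and 51.3% at 50 to 100 kb. Median log2 ratios of the sides were 2.75 upstream and 2.84 downstream, 3.05 and 3.06, and -2.68 and -2.52 in the 3 comparisons.

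The sides were also set side by side over libraries, with the log2 ratio of mean upstream to mean downstream normalized reads as 1 value per library. The regions were listed because these same libraries differed, so the values are a description and no p is given. In PvM the proestrus libraries had -0.06 and -0.09 and the male libraries -0.80, -0.67, and -1.13. The group means differed by 0.79, and a single downstream region on chromosome 17, described further on, held much of it, since the difference was 0.23 without that region. In PvD the proestrus libraries had -0.05 and -0.08 and the diestrus libraries -0.36, -0.51, -0.37, and 0.04. The diestrus values lay on both sides of the proestrus values, with a difference of 0.23, which turned to -0.09 without the same region. In DvM the diestrus libraries had 0.05, -0.09, -0.13, and 0.14 and the male libraries 0.35, 0.22, and 0.19, a difference of -0.26.

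The deposited enrichment, which divides each mean by its background, moved with the reads. It was higher in the group with more reads in 706 of 717 members, 627 of 627, and 248 of 249, beside 2053 of 2087, 1653 of 1654, and 628 of 634 of all listed regions, so these counts describe the list and not the members. Of the members higher in proestrus than in males, 632 of 638 had an enrichment above 1 in proestrus and 52 had one above 1 in males, and of the 79 lower members 78 had one above 1 in males. Of the members higher in proestrus than in diestrus, 614 of 617 had an enrichment above 1 in proestrus and 7 in diestrus. In DvM an enrichment above 1 was found in diestrus for 91 of 91 members that were higher there, and in males for 155 of 158 members higher there. Over both directions, an enrichment above 1 was found in the first group for 88.6%, 98.1%, and 37.8% of the members of PvM, PvD, and DvM, beside 90.3%, 97.8%, and 39.0% of all listed regions, and in the second group for 18.1%, 2.55%, and 63.1%, beside 16.5%, 3.08%, and 62.9%.

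The background itself, obtained by dividing the mean by the enrichment, went both ways. Its median log2 ratio was 0.15 (quartiles -0.47 and 0.82) in PvM, beside 0.14 over all listed regions of chromosomes 1 to 20. It was -0.04 (quartiles -0.58 and 0.49) in PvD, beside -0.03, and -0.12 (quartiles -0.50 and 0.27) in DvM, beside -0.10. A background ratio of at least 2-fold in the direction of the reads was found in 132 of 643 members of PvM with a background (20.5%, beside 20.3% of all listed regions), 45 of 573 of PvD (7.85%, beside 7.16%), and 26 of 248 of DvM (10.5%, beside 11.8%). One against the direction of the reads was found in 73 (11.4%, beside 9.44%), 66 (11.5%, beside 11.1%), and 7 (2.82%, beside 3.84%). These shares were near those of the list. The part of the background in the read difference of these members was not tested.

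**Figure D3:**
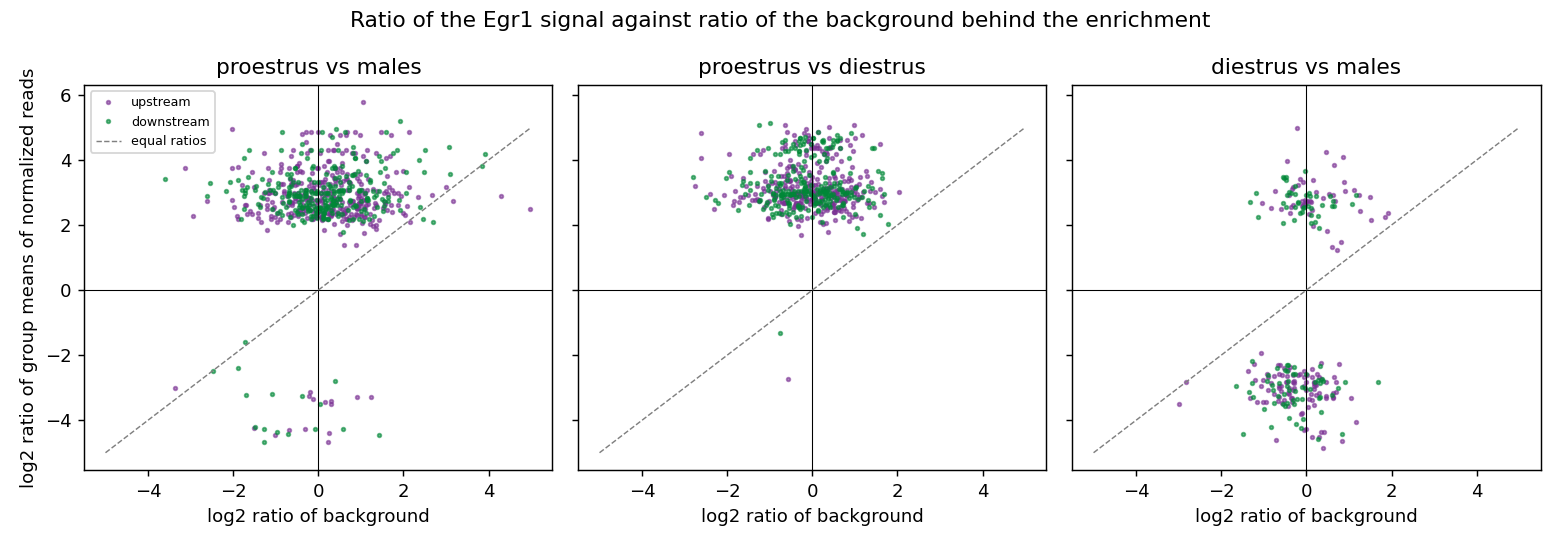
Log2 ratio of group means of normalized reads against the log2 ratio of the background behind the enrichment, for members with a finite value of both. The dashed line marks equal ratios. Background ratios lie on both sides of 0 (medians 0.15, -0.04, and -0.12), and a few members near the line had background ratios as large as the read ratios.

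Symbols could be given to few nearest genes. Of the 1363 nearest genes of the 3 comparisons, 56 had a symbol in the sources used here, which covers 62 members, 20 in PvM, 28 in PvD, and 14 in DvM. Of 9 gene lists of neuronal and hormone functions, at most 29.2% of the genes of a list had an identifier, so counts over the lists are void, and the 4 list genes near a member are described singly. Of the members with a symbol, 16 of 20 were higher in proestrus than in males, 28 of 28 were higher in proestrus than in diestrus, and 5 of 14 were higher in diestrus than in males, beside 90.3%, 98.2%, and 37.9% of all listed regions, so these counts describe the lists and not the genes with a symbol.

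Among receptors of neurotransmitters, Htr1f, which encodes a Gi-coupled serotonin receptor, had a region 28684 bp upstream, on chromosome 11 from 1990251 to 1990750. It held 6.60 and 5.68 normalized reads in proestrus and 1.39, 0, and 0 in males, from 12 reads in all. Both proestrus libraries were above every male library (log2 ratio 3.74). Grm4, the gene of a presynaptic metabotropic glutamate receptor, had a region 44801 bp downstream, on chromosome 20 from 8941201 to 8941750, with 9.21 and 5.56 in proestrus and 1.71, 0, 2.12, and 0 in diestrus. Its log2 ratio was 2.94, with background lower in proestrus (log2 ratio -0.92). The region 94862 bp upstream (chromosome 14, 39377951 to 39378550) of Gabra2, the α2 subunit of the GABA-A receptor, had a log2 ratio of 3.01 between proestrus and diestrus, beside a background log2 ratio of 2.04, the highest of the list genes.

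Cplx2 encodes complexin 2, which binds the SNARE complex and controls the fusion of synaptic vesicles. Its region, 46895 bp upstream on chromosome 17 from 12939001 to 12939550, held 10.52 and 9.04 normalized reads in proestrus and 2.56, 3.78, 2.12, and 0 in diestrus. This was one of the best covered regions with a symbol, with 29 reads, an enrichment of 7.98 in proestrus and 0.83 in diestrus, and a log2 ratio of 2.21. The somatostatin gene Sst, a marker of a class of cortical inhibitory interneurons, had a region 23662 bp downstream (chromosome 11, 80350101 to 80350600) with 6.60 and 7.30 in proestrus and 1.39, 0.92, and 1.27 in males. It was chosen after its values were seen, and its male libraries held 1 or 2 reads each (log2 ratio 2.55). Sema5b, a semaphorin of axon guidance, was likewise chosen after its values were seen, with 6.60 and 7.30 in proestrus and 0, 2.75, and 0.63 in males at 46175 bp upstream (chromosome 11, 71452051 to 71452550).

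In PvM, Fzd9, a Frizzled receptor for Wnt ligands, had a region 43334 bp upstream (chromosome 12, 26427401 to 26427950) with 9.89 and 5.68 normalized reads in proestrus and 0, 1.83, and 0.63 in males (log2 ratio 3.25). Tom1l1, an adaptor of endosomal sorting, had 13.19 and 7.30 in proestrus and 1.39, 1.83, and 2.54 in males at 90896 bp upstream (chromosome 10, 78163401 to 78163950), and Ado, a thiol dioxygenase, had 13.19 and 8.92 against 2.78, 1.83, and 1.90 at 26976 bp upstream (chromosome 20, 24517901 to 24518400). At both, each proestrus library was above each male library, and the log2 ratios were 2.42 and 2.35. Further members with a symbol that were higher in proestrus lay near Polq, Pan3, Fam222a, Parm1, and Phyhipl, the last listed at 0 in all 3 male libraries.

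Of the 4 members with a symbol that were higher in males than in proestrus, Hnrpd, the gene of an RNA-binding protein that controls mRNA decay, had 8.34, 6.42, and 10.14 normalized reads in males and 1.65 and 0 in proestrus at 23491 bp upstream (chromosome 14, 11176251 to 11176800), with a log2 ratio of -3.34. Ccdc167 had 6.95, 11.00, and 8.24 in males and 0 and 0.81 in proestrus at 8747 bp downstream (chromosome 20, 10559701 to 10560400), with a log2 ratio of -4.41. Rxfp2, a receptor of the relaxin family, was chosen after its values were seen. It was listed at 0 in both proestrus libraries and had 5.56, 7.34, and 6.97 in males at 61287 bp upstream (chromosome 12, 8242501 to 8243000).

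The fourth lay downstream of Chic2, which had a member in each direction. The region 22570 bp downstream, on chromosome 14 from 35568951 to 35569450, had 8.25 and 5.68 in proestrus and 0, 0.92, and 0.63 in males, whereas the region 37520 bp downstream, from 35583901 to 35584400, had 1.65 and 0 in proestrus and 5.56, 9.17, and 8.24 in males. The log2 ratios were 3.74 and -3.22. Background moved with the second region (log2 ratio -1.71) and less with the first (0.32).

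In PvD, the better covered members with a symbol included those near Col6a1, a chain of the extracellular matrix protein collagen VI, with 17.10 and 8.34 in proestrus and 5.12, 0, 2.12, and 2.08 in diestrus at 86113 bp upstream (chromosome 20, 14730701 to 14731450), and those near Igfbp7, which encodes a secreted binding protein of insulin-like growth factors, with 11.84 and 6.26 against 1.71, 2.52, 2.12, and 1.04 at 92551 bp upstream (chromosome 14, 32710701 to 32711300). The proestrus libraries differed from each other by more than the diestrus libraries did, but did not overlap with them (log2 ratios 2.45 and 2.29). Hlx, a homeobox transcription factor, had 9.21 and 6.95 in proestrus and 0.85, 0, 0, and 2.08 in diestrus at 78304 bp downstream (chromosome 13, 107236551 to 107237100). Scarb2, a lysosomal membrane protein, had 7.89 and 6.26 against 1.71, 0, 1.06, and 1.04 at 11220 bp upstream (chromosome 14, 16968551 to 16969050). Rev3l, the catalytic subunit of DNA polymerase zeta, had 9.21 and 6.95 against 0, 2.52, 2.12, and 2.08 at 37849 bp upstream (chromosome 20, 46487851 to 46488450), beside a background log2 ratio of 1.02.

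All 28 members with a symbol in PvD were higher in proestrus, and those near the transcriptional regulators Nrip1, Bcl6, and Tfcp2l1 were among them. These were chosen after their values were seen, and an excess of regulators was not tested. The region 85826 bp downstream (chromosome 11, 18227901 to 18228400) of Nrip1, a corepressor of nuclear receptors including the estrogen receptor, had 6.58 and 5.56 normalized reads in proestrus and 0, 1.26, 0, and 1.04 in diestrus. That 33209 bp upstream (chromosome 11, 80510401 to 80510900) of Bcl6, a transcriptional repressor, had 5.26 and 4.17 in proestrus and was listed at 0 in all 4 diestrus libraries, from 10 reads in all. That 57206 bp upstream (chromosome 13, 39683551 to 39684050) of Tfcp2l1, a transcription factor, had 5.26 and 4.87 against 0, 0, 1.06, and 0. In the latter 2, a single read or none was found in the whole diestrus group. The further genes with a member higher in proestrus than in diestrus were N6amt1, Dyrk1a, Alcam, Slc15a4, Fam101a, Rrp15, Cdc7, Anxa3, Srd5a3, Kit, Lnx1, Ociad2, and Fam26e, of which Fam101a had 2 members, and Slc15a4 had its member in the span of another listed gene.

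**Figure D4:**
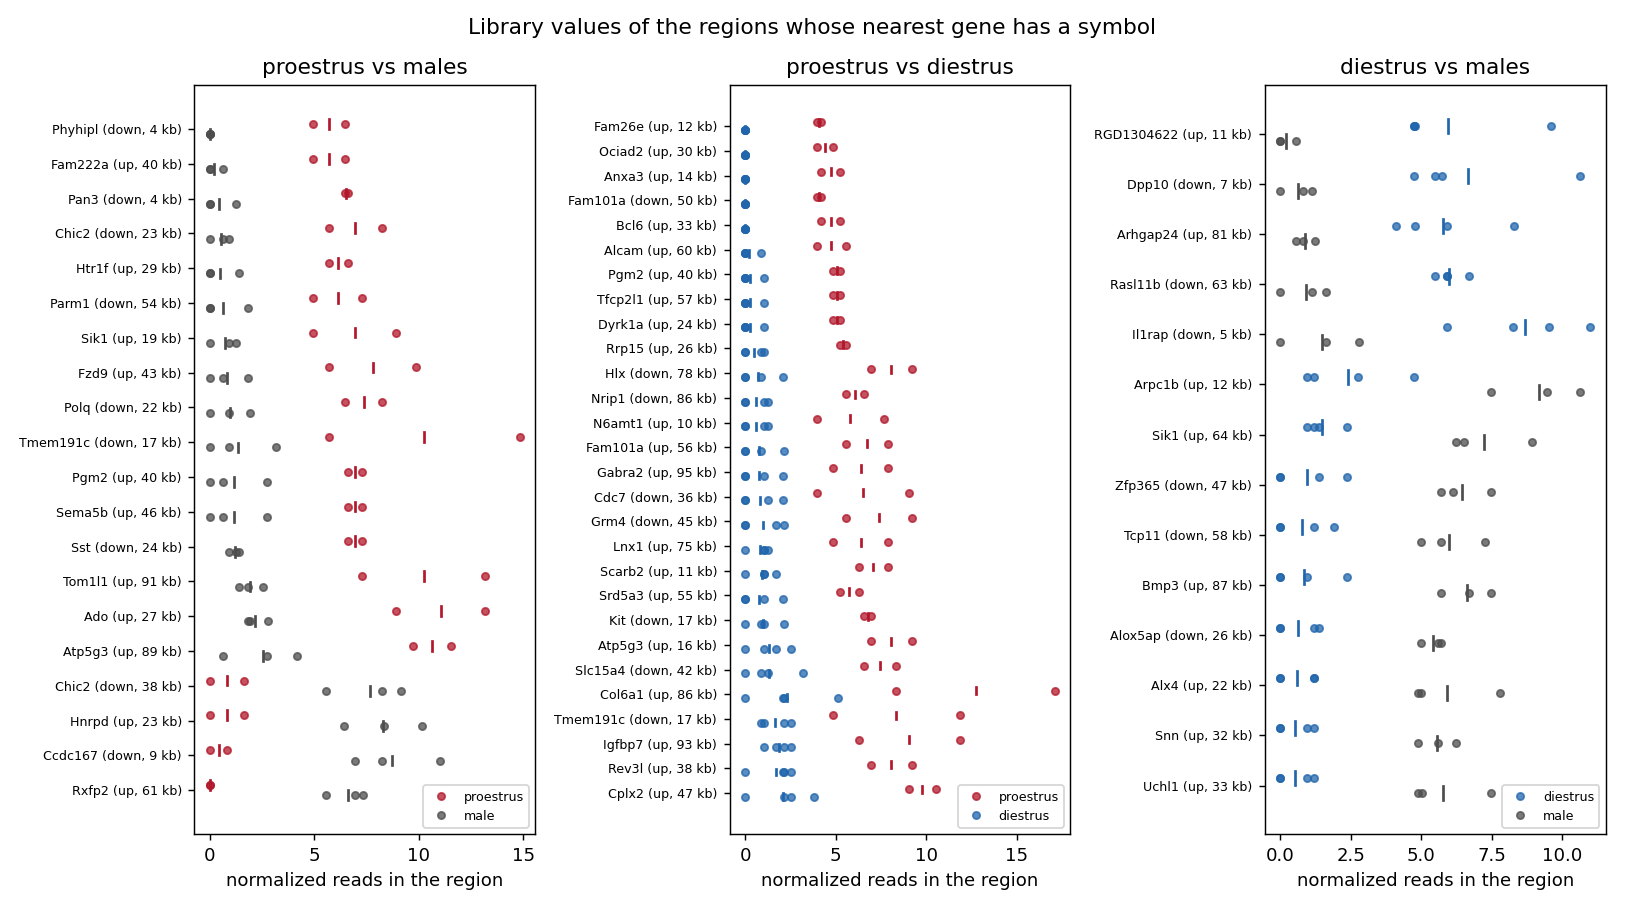
Normalized reads of each library in the members whose nearest gene has a symbol, with the group mean as a short vertical line, the side (up or down of the gene) and the shortest distance in parentheses. Red points are proestrus, blue diestrus, and grey male libraries. Groups are apart in each row, 4 of 20 rows are higher in males than in proestrus, 28 of 28 are higher in proestrus than in diestrus, and 9 of 14 are higher in males than in diestrus.

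In DvM, the members with a symbol that were higher in diestrus included those near Il1rap, Dpp10, and Rasl11b. Il1rap, the accessory protein of the interleukin-1 receptor, had a region 4507 bp downstream (chromosome 11, 83257651 to 83258200) with 9.54, 10.99, 5.91, and 8.27 normalized reads in diestrus and 0, 1.63, and 2.79 in males (log2 ratio 2.56). Dpp10, an auxiliary subunit of voltage-gated Kv4 potassium channels, had 5.73, 5.49, 4.73, and 10.64 in diestrus and 0, 0.82, and 1.12 in males at 7392 bp downstream (chromosome 13, 44547551 to 44548050). At both, each diestrus library was above each male library. Rasl11b, a Ras-like GTPase, had 6.68, 5.49, 5.91, and 5.91 against 0, 1.63, and 1.12 at 62566 bp downstream (chromosome 14, 36315101 to 36315600).

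The members higher in males than in diestrus included a region 12000 bp upstream (chromosome 12, 13346951 to 13347450) of Arpc1b, a subunit of the Arp2/3 complex that nucleates actin, with 7.47, 10.62, and 9.48 normalized reads in males and 0.95, 2.75, 4.73, and 1.18 in diestrus. Its log2 ratio of -1.94 stood beside a background log2 ratio of -1.07. Bmp3, a ligand of the BMP family, had 7.47, 5.72, and 6.69 in males and 0.95, 0, 0, and 2.36 in diestrus at 87371 bp upstream (chromosome 14, 12418401 to 12418900), in the span of another listed gene. Zfp365, a zinc finger protein, had 7.47, 5.72, and 6.14 against 0, 1.37, 2.37, and 0 at 47044 bp downstream (chromosome 20, 24230101 to 24230600). Alx4, a homeobox transcription factor, had 4.98, 4.90, and 7.81 in males and 0, 0, 1.18, and 1.18 in diestrus at 22428 bp upstream (chromosome 3, 89226651 to 89227150). At each of these the lowest male library was above every diestrus library. Uchl1, a ubiquitin hydrolase abundant in neurons and chosen after its values were seen, had 7.47, 4.90, and 5.02 against 0.95, 0, 0, and 1.18 at 32786 bp upstream (chromosome 14, 42971751 to 42972250). The others higher in males lay near Snn, Alox5ap, Tcp11, and Sik1.

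Sik1, which encodes the salt-inducible kinase 1, had members of 2 comparisons at different sites. The region 64461 bp upstream (chromosome 20, 12919501 to 12920000) had 6.22, 6.53, and 8.92 normalized reads in males and 0.95, 1.37, 2.37, and 1.18 in diestrus (log2 ratio -2.30). The region 19211 bp upstream (chromosome 20, 12874251 to 12874750), chosen after its values were seen, had 4.95 and 8.92 in proestrus and 0, 0.92, and 1.27 in males (log2 ratio 3.25). Atp5g3, a subunit of mitochondrial ATP synthase, also had separate sites, 88711 bp upstream (chromosome 3, 67381301 to 67381900) with a log2 ratio of 2.08 against males and 15761 bp upstream (chromosome 3, 67308351 to 67309050) with 2.61 against diestrus, both higher in proestrus.

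The widest finite ratios stood against groups with 1 read in all. In PvM they were 5.77 upstream, at a region of chromosome 1 from 148877751 to 148878700 with 11.54 and 11.36 normalized reads in proestrus and 0, 0, and 0.63 in males, and 5.21 downstream, on chromosome 1 from 149907401 to 149908200 with 8.25 and 7.30 against 0, 0, and 0.63. In each a single male read was left, and background was also higher in proestrus (log2 ratios 1.04 and 1.92). In PvD they were 5.09 upstream, on chromosome 4 from 20501051 to 20501800, with 5.26 and 9.04 in proestrus and 0.85, 0, 0, and 0 in diestrus, and 5.14 downstream, on chromosome 6 from 68811501 to 68812350, with 7.89 and 6.95 against 0.85, 0, 0, and 0. In DvM the widest were 4.97 at a region 10691 bp upstream (chromosome 13, 77825951 to 77826450) of RGD1304622, with 4.77, 9.61, 4.73, and 4.73 in diestrus and 0, 0, and 0.56 in males, and -4.57 downstream on chromosome 14 from 19377351 to 19377900, with 0.95, 0, 0, and 0 in diestrus and 4.98, 6.53, and 5.58 in males.

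The members with the largest group means included several in which background moved with the reads. A region of chromosome 17 from 91127301 to 91130050, which began 204 bp past the end of ENSRNOG00000028913, held 125.33 and 122.51 normalized reads in proestrus and 422.50, 288.83, and 407.04 in males, or 1488 reads in all. The 3 male libraries were far above both proestrus libraries, with a log2 ratio of -1.59 and a background log2 ratio of -1.72, and the enrichments were 1.43 in proestrus and 1.31 in males. In the table of PvD the listed region was shorter, from 91127351 to 91128250, with 25 and 28.51 in proestrus and 81.06, 79.39, 75.15, and 29.17 in diestrus. The fourth diestrus library was close to both proestrus libraries there, and the log2 ratio was -1.31, beside -0.75 for background.

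Of the further regions with large group means, those on chromosomes 7 and 16 were chosen after their values were seen. The others met the naming rule. One on chromosome 7 from 5317601 to 5319150 had 18.14 and 13.79 normalized reads in proestrus and 84.78, 70.60, and 96.37 in males, with a log2 ratio of -2.39 and a background log2 ratio of -1.88. One on chromosome 20 from 29290601 to 29291850, downstream of ENSRNOG00000042916, had 56.07 and 59.23 in proestrus and 2.78, 5.50, and 1.27 in males, with log2 ratios of 4.18 for reads and 3.90 for background, and the enrichments of 1.15 and 0.95 were nearly equal. In PvD this region had 44.73 and 50.76 in proestrus and 4.27, 37.80, 4.23, and 0 in diestrus, so 1 diestrus library was near the proestrus level and the others were far below it. Another, on chromosome 1 from 236149401 to 236150200, had 22.90, 23.34, 17.74, and 62.65 in diestrus and 2.49, 15.51, and 0.56 in males (log2 ratio 2.35, background 1.91). Its neighbour from 236144951 to 236146000 had 18.13, 23.34, 18.92, and 42.56 in diestrus and 4.98, 10.62, and 0.56 in males (log2 ratio 2.26, background 1.843), and the table of PvD listed it with 5.26 and 0.70 in proestrus and 15.36, 18.90, 12.70, and 32.30 in diestrus. Diestrus was thus above males in one table and above proestrus in the other at this site, with the fourth library highest in both tables. Background did not move with the reads at every such region. One on chromosome 16 from 67941851 to 67942750 in PvD had 17.10 and 8.34 in proestrus and 4.27, 1.26, 2.12, and 0 in diestrus, with a log2 ratio of 2.74 beside -0.15 for background.

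A group of regions on chromosome 2 was the largest near 1 gene, and it was chosen after its values were seen. All lay upstream of ENSRNOG00000009697, whose listed span is 395 bp, from 24206 bp to 68406 bp from its start. Proestrus versus males had 8 members there, PvD 2, and DvM 4. In the first comparison the region with the largest group mean, from 166404851 to 166405800, held 34.63 and 21.09 normalized reads in proestrus and 12.51, 9.17, and 3.17 in males. All 8 were higher in proestrus, with log2 ratios from 1.39 to 2.30, and all 4 of the third comparison were higher in diestrus than in males, with log2 ratios from 1.23 to 1.81.

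At the overlapping region of DvM, from 166404601 to 166405450, the values were 26.72, 10.99, 8.28, and 22.46 in diestrus and 7.47, 4.90, and 2.23 in males. The lowest diestrus library was just above the highest male library. The region from 166419951 to 166420850 was the only member of the 3 comparisons in which groups overlapped, with 41.03, 24.72, 13.01, and 31.92 in diestrus and 16.17, 9.80, and 7.25 in males. Proestrus was above diestrus at the ends of the group, with 11.84 and 13.21 against 2.56, 3.78, 1.06, and 7.29 from 166392701 to 166393500 and 14.47 and 17.38 against 6.83, 2.52, 3.18, and 7.29 from 166436801 to 166437350. The log2 ratios were 1.77 and 1.69, beside background log2 ratios of 0.36 and -0.28. Background moved in the same direction at all 8 members of PvM, with log2 ratios from 0.14 to 2.05, and the enrichment in proestrus was between 0.74 and 2.50. The part of the background was not tested.

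Few distal regions were listed in more than 1 comparison, and the comparisons share libraries. By position, 57 members were listed in both comparisons with proestrus, which is 7.95% of the members of PvM and 9.09% of those of PvD, and the same proestrus libraries enter both. Proestrus versus males and DvM shared 8 (1.12% and 3.21%), and PvD and DvM shared 5 (0.797% and 2.01%). Nearest genes were shared by 101, 27, and 19. Overlap over all listed regions was not counted, so these counts are not read as particular to distal regions.

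Side by side, some sites set proestrus apart from both other groups. The region 17147 bp downstream (chromosome 11, 91012701 to 91013200) of Tmem191c had 14.84 and 5.68 normalized reads in proestrus and 0, 0.92, and 3.17 in males, and in PvD it had 11.84 and 4.87 in proestrus and 0.85, 2.52, 2.12, and 1.04 in diestrus. The region about 40 kb upstream of Pgm2, a phosphoglucomutase-family enzyme chosen after its values were seen, had 6.60 and 7.30 in proestrus and 0, 2.75, and 0.63 in males, and 5.26 and 4.87 in proestrus and 0, 0, 1.06, and 0 in diestrus. The region of chromosome 11 from 81785251 to 81786150 had 13.19 and 12.98 in proestrus and 1.39, 1.83, and 3.17 in males, and 10.52 and 9.73 in proestrus and 2.56, 1.26, 0, and 3.13 in diestrus. At these 3 sites every proestrus library was above every male and every diestrus library of its table.

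At the 8 regions shared by both comparisons with males, the males lay on the same side of both female groups. The same male libraries enter both comparisons, so the agreement is not independent. On chromosome 18 from 31362051 to 31362550, downstream of ENSRNOG00000014096, the males had 11.12, 11.00, and 8.88 normalized reads and the proestrus libraries 0 and 0.81, and in the other table the males had 9.95, 9.80, and 7.81 and the diestrus libraries 0.95, 4.12, 0, and 2.36. The background log2 ratios there were -1.27 in PvM and -0.43 in DvM. In the opposite direction, the region on chromosome 16 that began at 57164101 had 9.89 and 7.30 in proestrus and 0, 0.92, and 0 in males, and the one that began at 57164301 had 5.73, 4.12, 4.73, and 5.91 in diestrus and 0, 0.82, and 0 in males. A region on chromosome 1 that began at 186542051 had 3.30 and 0 in proestrus and 18.07, 15.59, and 6.34 in males, beside a background log2 ratio of -3.36, larger in size than that of the reads (-3.01). Of the 8, 3 were higher and 5 lower in the females of both tables.

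At the 5 regions shared by the comparisons with diestrus, diestrus lay on the same side of both other groups. The same diestrus libraries enter both comparisons, so the agreement is not independent. On chromosome 19, the region that began at 29079651 had 6.58 and 5.56 normalized reads in proestrus and 0.85, 0, 0, and 0 in diestrus, and the one that began at 29079601 had 0.95, 0, 0, and 0 in diestrus and 7.47, 7.35, and 6.14 in males. On chromosome 1, the region from 137933051 to 137933800 had 6.58 and 6.26 in proestrus and 0, 0, 2.12, and 1.04 in diestrus, beside a background log2 ratio of 1.47, and its overlapping region from 137933151 to 137933650 was listed at 0 in all 4 diestrus libraries and had 4.98, 5.72, and 4.46 in males. At these sites the diestrus libraries held from 0 to 2 reads each, and both other groups were above them. The site of chromosome 1 that began at 236144951, given above, was the one of the 5 with diestrus highest.

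The members nearest to the limits of the rule, and the listed regions just beyond them, are given as single values. Just inside 10000 bp from the gene start, a region of PvM at 10002 bp had 6.60 and 6.49 normalized reads in proestrus and 1.39, 0.92, and 0 in males (background log2 ratio 1.74), and just outside, a region at 9974 bp had 9.89 and 7.30 against 1.39, 0.92, and 1.27 (background -0.19). Just inside 100000 bp a region at 99572 bp had 6.60 and 10.55 against 0, 0.92, and 1.27 (background 1.12), and just outside, one at 100298 bp had 4.95 and 8.92 against 0, 1.83, and 0.63, with no background ratio. In PvD the log2 ratios on both sides of the limits were 2.20 inside and 2.62 outside 10000 bp, and 2.33 inside and 3.19 outside 100000 bp. In DvM they were -3.28 and -3.35, and -3.32 and -2.71.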

How the data were processed

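Egr1 ChIP-seq libraries of the mPFC of males (n = 3), proestrus females (n = 2), and diestrus females (n = 4) were analysed, grouped by the sample labels. The submitters' processing notes name Trimmomatic 0.32, Bowtie2 2.1.0, SAMtools 0.1.19, Picard 1.84, and the Rnor 5.0 build. The authors compared the groups pairwise with DiffReps and annotated the called regions with ChIPpeakAnno. An Input library was made beside each immunoprecipitated library. The window, test, cut-off, normalization, and background of DiffReps are not given in the sources read. Whether Input entered the background is thus not known. Group means were deposited as a signal (normalized reads per region), the deposited enrichment is a ratio of that mean to background, and the deposited lists hold 1 normalized value per library. The lists carry no sample names, and none was matched to a sample. List positions serve as names only. The tables also hold the authors' log2 fold changes, p-values, and adjusted p-values, which were not used.

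Ratios were the log2 of the deposited group means, with a mean of 0 ranked beyond all finite ratios in medians. The value of 1 read was estimated per library from its low values. A count test was not run, because only called regions are listed. Shares have Wilson intervals and their differences Newcombe intervals (95%). The exact two-sided permutation test planned for the library ratios of the sides was run but is not read, because the regions were listed for differences between the same libraries. Overlap was counted from 1 bp. Scripts (Python 3.11.15, numpy 2.4.6, pandas 2.3.3, scipy 1.17.1, and matplotlib 3.10.9) were tested on simulated data.

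Regions were named by a rule: per comparison and side, the largest finite ratio and the largest group mean, the regions nearest to the limits of 10000 and 100000 bp, genes of the lists, up to 10 other regions with a symbol and up to 8 shared with another comparison, by group mean. Members, lists, and rules were chosen with earlier results of these data known. Symbols came from the identifier and symbol columns of the part of a supplementary table used here. The alternatives were limits of 50 and 200 kb, a shortest distance above 10 kb, 1 region per gene or locus, regions with a mean of 0 left out, 0.5 normalized reads added, a larger mean of at least 10, the median over regions, overlap of 50% or a gap of 1 kb, and leaving out each library. Leaving out regions in the span of another listed gene, leaving out each library from the library ratios, and leaving out the region with the largest mean were chosen after seeing the data.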

Additional observations from a re-analysis of the deposited data

Results flagged for a closer look

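In groups of 4 libraries, which here means diestrus, a library was singled out where its gap to the nearest other library was large against the range of the group. Of 87 groups of regions named in the text or by its rule and of the ratios per library, 17 had such a library. Chance flags about 1 in 20 groups of continuous values, but in 12 of the 17 the other libraries were all at 0 and the zeros fix the result, so 17 of 87 cannot be set against that rate.

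Of these, 3 concern well covered regions. The fourth diestrus library had 29.17 normalized reads at the region past the end of ENSRNOG00000028913 in proestrus versus diestrus, where the other diestrus libraries had 81.06, 79.39, and 75.15. The second had 37.80 downstream of ENSRNOG00000042916, where the others had 4.27, 4.23, and 0. The fourth had 62.65 at the region of chromosome 1 that began at 236149401 in diestrus versus males, where the others had 22.90, 23.34, and 17.74.

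At Dpp10 the fourth diestrus library had 10.64, with the others between 4.73 and 5.73, and at RGD1304622 the second had 9.61, with the others between 4.73 and 4.77. The remaining 12 are regions where 3 diestrus libraries were at 0 and the other held 1 or 2 reads. In proestrus versus diestrus the lone value was 0.85 at the regions that began at 29079651 on chromosome 19, 20501051 on chromosome 4, and 68811501 on chromosome 6 and at the region of Alcam, and 1.06 at those of Dyrk1a, Tfcp2l1, and Pgm2. In diestrus versus males it was 0.95 at those that began at 19377351 on chromosome 14, 52302201 on chromosome 17, and 29079601 on chromosome 19, 1.91 at 53198351 on chromosome 19, and 2.36 at 224867101 on chromosome 2.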

How the results depend on the processing

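Of 224 alternative values of 24 results, 197 kept their direction and side of the threshold or moved by less than the spread, 22 moved, 4 reversed, and 1 passed the threshold of the library test, which is not read here. With a larger mean of at least 10, the share higher was 94.1% in PvD and reversed to 58.3% in DvM, the median log2 ratio was 2.30 and 1.28 (reversed) there, the side difference in the share was 10 points in PvM and 33.3 in DvM, the side difference of medians was -0.15 and 3.72 in the latter 2 comparisons, and 77 of 77, 34 of 34, and 11 of 12 members did not overlap between groups, the counts being lower because fewer members were left. The side differences of DvM at that cut rest on 12 members from 8 nearest genes. With regions at 0 left out the share was 95.2% in PvM and 99.7% in PvD. With 0.5 added, the median log2 ratio was 2.46 in PvD and -2.22 in DvM. A limit of 50 kb left 431, 407, and 149 members and a side difference of medians of 0.045 in PvD. The library ratio of the sides in PvD reversed to -0.12 with a shortest distance above 10 kb and to -0.086 without the largest region, and that in DvM was -0.34 without the largest region. The cause of these moves was not tested. The median over regions gave no library ratio in PvD. Leaving out each library gave side differences of medians from -0.11 to 0.015 in PvD (lowest without the second diestrus library) and median log2 ratios from 2.50 to 2.93, 2.93 to 3.21, and -2.67 to -2.45. The library ratios ranged from 0.66 to 0.89, 0.16 to 0.35, and -0.31 to -0.21. Shares cannot change in this way where groups do not overlap. Medians of 17 to 27 reads per member limit single regions. No paired analysis was possible because the library lists carry no numbers or sample names.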
